A study of Mus musculus with 6 samples.

Results

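The mRNA levels of alveolar type 1 (AT1) cell genes were examined in lungs of LPS-injected mice that received saline or recombinant human thrombomodulin (rhTM). A list of 10 genes commonly used to mark AT1 cells was taken (Ager, Pdpn, Aqp5, Hopx, Rtkn2, Cav1, Akap5, Clic5, Emp2 and Vegfd), by gene name, with no measured value in the rule, although the list was drawn up with earlier results of these data known. Probes on the array were matched to 9 of them, all except Rtkn2, which was not analysed here. The 9 genes were covered by 17 probes, all well above background on all 6 arrays, and all 9 were among the 16370 genes tested. The mice were male C57BL6, 10 weeks old, were starved for 16 h and were given LPS i.p. at 20 mg/kg. Saline (3 mice) or rhTM (3 mice, at a dose given in the methods as 30 mg/kg) was then injected 3 and 24 h after LPS, and whole lung was collected at 30 h. The comparison therefore addresses what rhTM changed in lungs already exposed to LPS, since every animal on the arrays received it. No uninjured lung was analysed here.

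AT1 cells are the very thin, flat epithelial cells that line nearly all of the gas-exchange surface of the lung. They lie against the capillary endothelium across a shared basement membrane, and form the epithelial side of the barrier that leaks in acute lung injury. After injury they are replaced by alveolar type 2 (AT2) cells, the cuboidal surfactant-producing cells, which pass through a keratin-rich transitional state. The AT1 genes encode a pattern-recognition receptor (Ager), surface and membrane proteins (Pdpn, Aqp5, Emp2), caveolar and cytoskeletal scaffolds (Cav1, Akap5, Clic5), a nuclear regulator (Hopx) and a secreted growth factor (Vegfd).

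All values are log2 signals of 1-colour arrays, 1 array per mouse, with the 75th percentile of each array set to 0. The level of a gene was not compared with that of another, because brightness depends on the probe. Between 36243 and 40647 of 56605 probes were well above background per array, and no probe was saturated. In the table of values that the authors deposited beside the scanner output, saline replicate 1 and rhTM replicate 2 were exchanged, and it could not be settled which assignment holds. Values below follow the scanner output unless the table is named. By the scanner output, saline replicate 1 and rhTM replicate 3 were on slide 2 and the other four arrays on slide 1, whereas by the table slide 2 held only rhTM arrays, so that there slide and treatment can be told apart only through rhTM replicate 1. Spike-in RNAs gave a slope of 0.826 for saline replicate 1, compared with 1.07 to 1.09 on the other arrays. In whole lung, fewer AT1 cells and less RNA per AT1 cell cannot be told apart.

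None of the 9 AT1 genes differed between rhTM-treated and saline-treated mice after adjustment. The limma test gave an adjusted p of 0.9999 for every one of them, 0 were called in either direction, and over all genes tested 0.0% were called higher and 0.0% lower. At an unadjusted p under 0.05, 0 of 9 passed, against 1.87% of all genes. The mean was lower with rhTM for 7 of 9 AT1 genes, compared with 49.3% of all genes, and higher for Aqp5 and Emp2. The median difference of the 9 was -0.29 log2 (rhTM minus saline), compared with 0.0026 over all genes. For 5 of the 9 genes (Pdpn, Cav1, Akap5, Clic5 and Vegfd) the difference was below -0.25 log2, which held for 10.2% of all genes. The -0.25 cut was not among the planned counts, and only the lower side was counted. The 9 genes also varied more between arrays, with a median range of 0.93 log2, compared with 0.54 over all genes. The saline and rhTM values of all 9 genes overlapped, whereas the groups did not overlap for 5.52% of all genes (2.95% with rhTM higher and 2.57% with rhTM lower).

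By the authors' table, 0 of 9 genes were called likewise, where 0.0% of 16320 genes were called in either direction. The mean was lower with rhTM for 8 of 9, compared with 54.0% of all genes, and the median difference was -0.33 log2. Differences below -0.25 log2 were found for the same 5 genes and for 16.2% of all genes. At an unadjusted p under 0.05, 0 of 9 passed, against 14.0% of all genes. The groups did not overlap for 1 of 9, Aqp5, against 21.7% of all genes (9.68% with rhTM higher, 12.0% with rhTM lower).

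**Figure D1:**
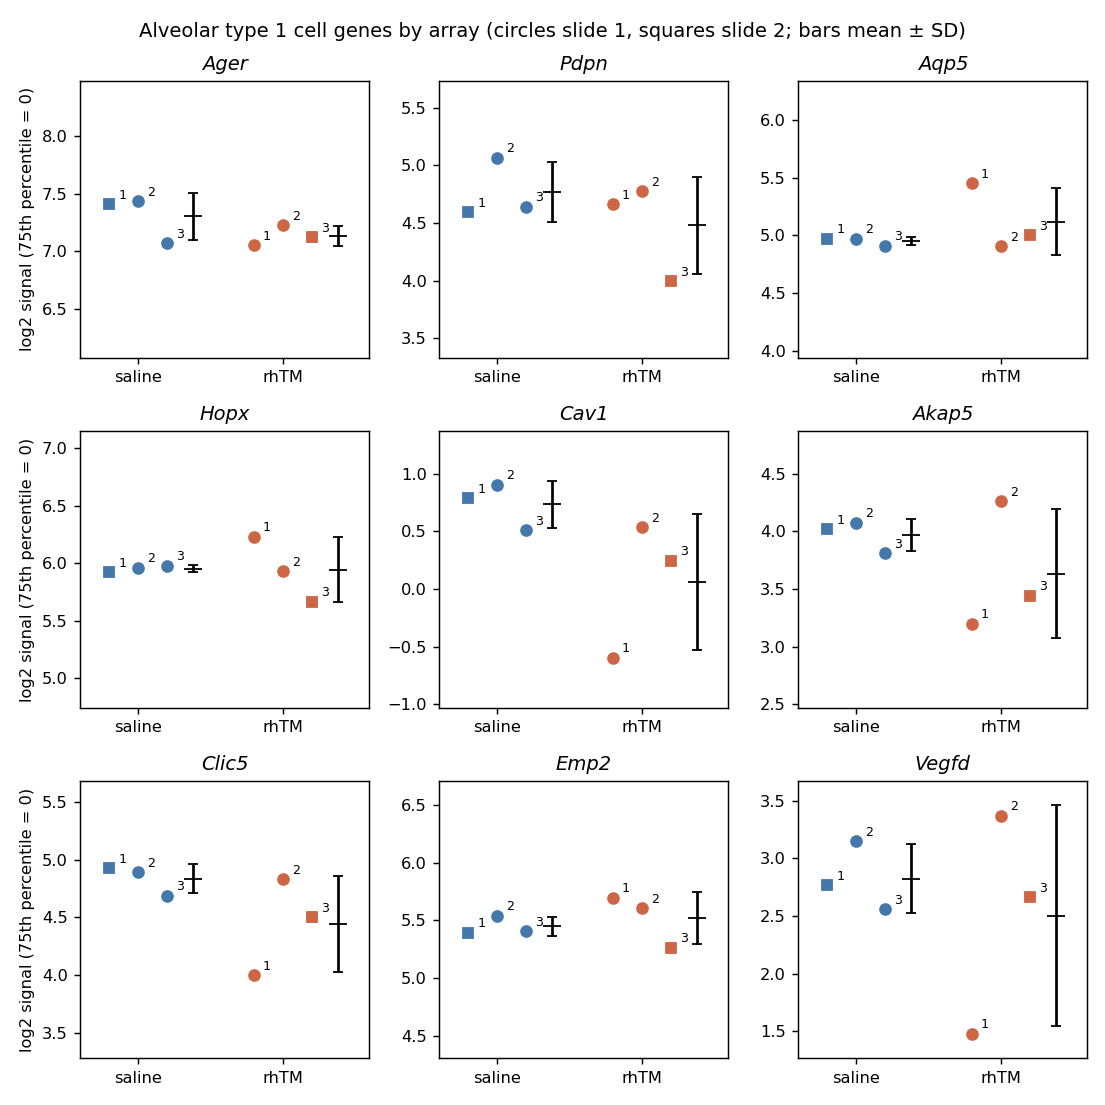
Log2 signal of the 9 AT1 genes on each array (y axis, 75th percentile of the array = 0), by group on the x axis, with circles for slide 1, squares for slide 2 and bars for mean ± SD of 3 arrays. Saline and rhTM points overlap in all 9 panels, and the rhTM points of Vegfd spread from 1.48 to 3.37.

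Ager encodes RAGE, the receptor for advanced glycation end-products, which also binds HMGB1 and S100 proteins and is carried at high levels by AT1 cells. Its log2 level was 7.41, 7.44 and 7.07 in the saline mice and 7.05, 7.22 and 7.12 in the rhTM mice. Saline replicates 1 and 2 lay above all rhTM arrays, while saline replicate 3 lay within the rhTM range. The difference was -0.17 (SE 0.14, 95% interval -0.51 to 0.17, exact permutation p = 0.3). On the linear scale Ager stood at 159 ± 21.4 times the 75th percentile with saline and 140 ± 8.47 with rhTM (SD, n = 3 each). By the table the difference was -0.05.

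Ager was the only AT1 gene with probes to more than one kind of transcript. Of its 5 probes, 4 were designed on protein-coding transcripts, and these differed by -0.17, -0.17, -0.30 and -0.26 log2 (by the table -0.05, -0.09, -0.18 and -0.18). The remaining probe, designed on a non-coding transcript variant, measured 0.22, 0.84 and 0.51 with saline and 0.80, 0.66 and -0.08 with rhTM. It differed by -0.06 (by the table -0.35). The coding probes were highest on saline replicate 2, and all 4 were below their own mean on saline replicate 3, rhTM replicate 1 and rhTM replicate 3. The non-coding probe was instead above its mean on rhTM replicate 1 and lowest on rhTM replicate 3.

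**Figure D2:**
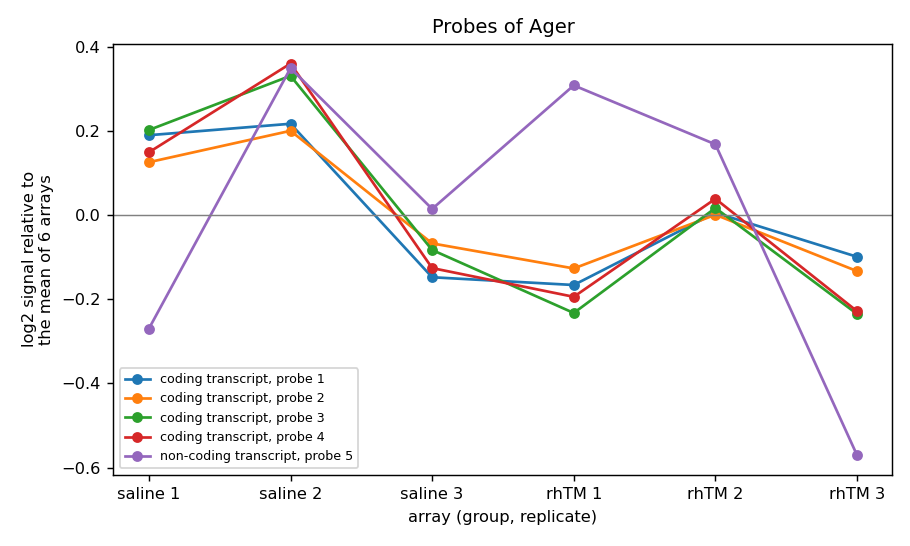
Log2 signal of each of the 5 Ager probes relative to its own mean over 6 arrays (y axis), by array (x axis); lines join the values of a probe and carry no order in time. The 4 coding-transcript probes run together, whereas the non-coding transcript probe departs from them on saline replicate 1, rhTM replicate 1 and rhTM replicate 3.

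Genes of the RAGE pathway showed no call in either direction with all arrays, by the scanner output or by the table. Of 16 RAGE ligands and HMGB1 receptors, 13 had a higher mean with rhTM and 3 a lower one, with a median difference of 0.09 log2 (12 higher and a median of 0.15 by the table), and 0 passed an unadjusted p under 0.05. Hmgb1, the chromatin protein that acts as an alarm signal outside the cell, measured 3.06, 2.98 and 3.69 with saline and 4.25, 3.54 and 3.29 with rhTM. Its difference of 0.45 (SE 0.30) was smaller by the table, at 0.13. Tlr2, a Toll-like receptor for bacterial lipoproteins, differed by -0.13 (SE 0.21, and -0.30 by the table). Among 5 genes of RAGE shedding and its adaptors, 3 were higher and 2 lower, compared with 1 higher and 4 lower by the table. Adam10, a protease that releases RAGE from the cell surface, differed by 0.13 (SE 0.12, and -0.021 by the table), and Tirap, an adaptor of Toll-like receptors, by -0.09 (SE 0.12, and -0.021 by the table).

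Among the surface proteins, podoplanin (Pdpn), a mucin-type glycoprotein of AT1 cells that is also present on lymphatic endothelium and mesothelium, measured 4.60, 5.07 and 4.64 with saline and 4.66, 4.77 and 3.996 with rhTM. The highest array was saline replicate 2 and the lowest rhTM replicate 3, while the other four lay close together. The difference was -0.29 (SE 0.24, 95% interval -0.87 to 0.29, exact permutation p = 0.6), and by the table -0.41 (exact permutation p = 0.2). Without rhTM replicate 3 it was -0.049, and -0.20 by the table. On the linear scale Pdpn measured 27.6 ± 5.19 times the 75th percentile with saline and 22.9 ± 6.09 with rhTM (SD, n = 3 each).

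The summed signal of mesothelium markers, which mark the cell layer on the lung surface, was highest and lowest on the same arrays as Pdpn but differed from it on rhTM replicate 1. All 6 mesothelium markers had lower means with rhTM (median -0.54, by the table -0.62), with 0 called and 2 at an unadjusted p under 0.05. Their summed linear signal ranged from 36.7 to 55.7 times the 75th percentile with saline and from 25.0 to 40.8 with rhTM, and was highest on saline replicate 2 and lowest on rhTM replicate 3, the arrays on which Pdpn was highest and lowest. On rhTM replicate 1 the summed signal was 28.3, below every saline array, whereas Pdpn was 0.04 log2 above its mean over 6 arrays. Upk3b, a uroplakin of mesothelial cells, measured -0.14, 0.86 and 0.0025 with saline and -0.93, -0.0004 and -0.996 with rhTM (difference -0.88, SE 0.36, and -0.98 by the table). Of 6 lymphatic endothelium markers, 5 were higher with rhTM (median 0.04, and 0.25 by the table), and their summed signal was 47.2 to 55.5 with saline and 51.1 to 92.1 with rhTM. Lyve1, the hyaluronan receptor of lymphatic endothelium, differed by 0.46 (SE 0.24, and 0.39 by the table), and Prox1, its defining transcription factor, by -0.17 (SE 0.24, and 0.44 by the table). The summed signal was mostly that of Lyve1, at 5.39 log2 or above on every array, with every other gene of the list at 2.22 or below. On rhTM replicate 1 the median of the lymphatic list lay only 0.02 log2 above the mean over 6 arrays. The part of mesothelium or lymphatic cells in the Pdpn values was not tested.

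Aquaporin 5 (Aqp5), the water channel of the AT1 apical membrane, measured 4.97, 4.97 and 4.91 with saline and 5.45, 4.90 and 5.004 with rhTM. Only rhTM replicate 1 stood apart from the rest, above them. The difference was 0.17 (SE 0.17, 95% interval -0.23 to 0.56, exact permutation p = 0.5). Without rhTM replicate 1 it was 0.0027, and 0.059 by the table. By the table the difference was 0.21, and all 3 rhTM values lay above all 3 saline values, where the exact permutation p was 0.1, the smallest that 3 against 3 arrays can give. The lowest rhTM value (4.973) and the highest saline value (4.972) were nearly equal there. The second Aqp5 probe differed by 0.06 (0.34 by the table), and its groups overlapped by both assignments. On the linear scale Aqp5 measured 31.0 ± 0.761 times the 75th percentile with saline and 35.3 ± 7.43 with rhTM (SD, n = 3 each).

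Emp2 encodes a small tetraspan protein of epithelial membranes, abundant in the alveolar wall. The gene measured 5.39, 5.54 and 5.41 with saline and 5.70, 5.60 and 5.26 with rhTM, with the highest and the lowest value both in the rhTM group. The difference was 0.07 (SE 0.15, 95% interval -0.28 to 0.43, exact permutation p = 0.6) and took the opposite sign, -0.066, by the table. Among 6 other lung aquaporins and Emp family genes, 4 were lower and 2 higher (3 and 3 by the table). Aqp3, a water and glycerol channel of airway epithelium, was below its saline values on all 3 rhTM arrays (-0.45, -0.10 and -0.76 against -0.98, -1.15 and -1.16), with a difference of -0.66 (SE 0.19) but an adjusted p of 0.9999 from limma. By the table it differed by -0.19. Emp1 differed by 0.22 (SE 0.17, and 0.14 by the table).

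Hopx encodes a small homeodomain protein that does not bind DNA and marks AT1 cells. It measured 5.92, 5.96 and 5.98 with saline and 6.23, 5.93 and 5.67 with rhTM. The saline arrays lay within a narrow range, between the highest and lowest rhTM arrays. The difference was -0.011 (SE 0.16, 95% interval -0.40 to 0.38, exact permutation p = 0.9), and -0.018 by the table. The linear means were 62.0 ± 1.26 with saline and 62.3 ± 12.2 with rhTM (times the 75th percentile, SD, n = 3 each). The list of YAP, TEAD and Nkx2-1 regulators held 12 genes, namely transcription factors and coactivators of lung epithelium and the YAP targets Ccn1, Ccn2 and Ankrd1. Of these, 7 were higher and 5 lower (median 0.05), compared with 8 and 4 by the table (median 0.064). Wwtr1, which encodes the YAP partner TAZ, differed by 0.21 (SE 0.15, and 0.12 by the table), and Klf5, a zinc-finger factor of lung epithelium, by -0.19 (SE 0.15, and 0.061 by the table).

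By the scanner output, the differences furthest below 0 were those of the scaffold genes Cav1, Clic5 and Akap5 (by the table the order from the lowest was Vegfd, Cav1, Akap5, Pdpn and Clic5). Caveolin 1 (Cav1), the main coat protein of caveolae, which endothelial cells carry as well as AT1 cells, measured 0.79, 0.91 and 0.51 with saline and -0.60, 0.54 and 0.24 with rhTM. The lowest array was rhTM replicate 1, and rhTM replicate 2 lay within the saline range. The difference was -0.67 (SE 0.30, 95% interval -1.38 to 0.03, exact permutation p = 0.2), and -0.51 by the table (exact permutation p = 0.3). The second Cav1 probe differed by -0.56 (-0.35 by the table) and was also lowest on rhTM replicate 1. On the linear scale Cav1 measured 1.67 ± 0.228 with saline and 1.10 ± 0.402 with rhTM (times the 75th percentile, SD, n = 3 each).

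Genes that build caveolae with Cav1 had lower means in 6 of 8 cases (median -0.24), and in 8 of 8 by the table (median -0.42), with 0 called and 0 at an unadjusted p under 0.05. Ehd2, an ATPase at the caveolar neck, measured 1.28, 1.66 and 1.04 with saline and -0.22, 1.35 and 0.67 with rhTM (difference -0.72, SE 0.39, and -0.77 by the table). Cavin4, the muscle form of the caveolar coat proteins, differed by 0.20 (SE 0.26, and -0.29 by the table). The summed signal of the 8 genes was 92.1 on rhTM replicate 1, and 122.5 to 168.1 on the other five arrays. Of 12 capillary endothelium markers, 8 were higher and 4 lower with rhTM (median 0.12), compared with 7 and 5 by the table (median 0.04), with a summed signal of 152 to 179 for saline and 154 to 210 for rhTM. Ednrb, an endothelin receptor, differed by 0.40 (SE 0.17, and 0.25 by the table), and Pecam1, an adhesion molecule of all endothelium, by -0.42 (SE 0.26, and -0.63 by the table). The part of endothelium in the Cav1 values was not tested.

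Akap5, which anchors protein kinase A at the membrane, measured 4.02, 4.07 and 3.81 with saline and 3.20, 4.26 and 3.44 with rhTM. Both the highest array (replicate 2) and the lowest (replicate 1) were in the rhTM group. The difference was -0.33 (SE 0.28, 95% interval -0.99 to 0.32, exact permutation p = 0.4) and -0.49 by the table (exact permutation p = 0.2). The second Akap5 probe differed by -0.28 (-0.40 by the table), and was lowest on rhTM replicate 3 (1.68) rather than on rhTM replicate 1 (1.75).

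Clic5, a chloride intracellular channel family protein that links the membrane to actin, measured 4.93, 4.89 and 4.69 with saline and 3.999, 4.83 and 4.5002 with rhTM. Again rhTM replicate 1 lay below all others, and rhTM replicate 2 lay between the saline values. The difference was -0.39 (SE 0.22, 95% interval -0.92 to 0.13, exact permutation p = 0.2), and -0.33 by the table. On the linear scale Clic5 measured 28.6 ± 2.47 with saline and 22.4 ± 6.25 with rhTM, and Akap5 15.7 ± 1.49 and 13.1 ± 5.35 (times the 75th percentile, SD, n = 3 each).

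Vegfd, which encodes a secreted ligand of VEGF receptor 3 that AT1 cells and fibroblasts of the lung express, showed the widest spread of the 9 genes. It measured 2.77, 3.15 and 2.56 with saline and 1.48, 3.37 and 2.66 with rhTM, so that both ends of the range were rhTM arrays. The difference was -0.32 (SE 0.46, 95% interval -1.41 to 0.77, exact permutation p = 0.8), and it was 0.19 without rhTM replicate 1. By the table it was -0.72 (exact permutation p = 0.3). The second Vegfd probe differed by -0.60 (-0.92 by the table) and stood at -1.74 on rhTM replicate 1. Among 8 other genes of the VEGF family and its receptors, 5 were lower and 3 higher (median -0.05), and 7 were lower by the table (median -0.13). The receptor Flt1 and the ligand Vegfb differed by 0.16 (SE 0.14, and -0.11 by the table) and -0.24 (SE 0.15, and -0.27 by the table). Of 10 fibroblast markers, 7 were higher with rhTM (median 0.11), and 6 by the table (median 0.19). On rhTM replicate 1, 5 were the lowest of 6 arrays and 2 the highest. Inmt, a methyltransferase of lung fibroblasts, was among the lowest, at 5.51 compared with 6.88 to 7.38 on the other five arrays (difference -0.62, SE 0.45, and -0.67 by the table). Pdgfra, a receptor of platelet-derived growth factor on fibroblasts, was among the highest, at 4.59 compared with 4.05 to 4.49 (difference 0.28, SE 0.15, and 0.26 by the table). The summed signal of the 10 genes was 167 on rhTM replicate 1 and 262 to 305 elsewhere, but without Inmt it was 121, within the 118 to 180 of the other arrays. The part of fibroblasts in the Vegfd values was not tested.

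**Figure D3:**
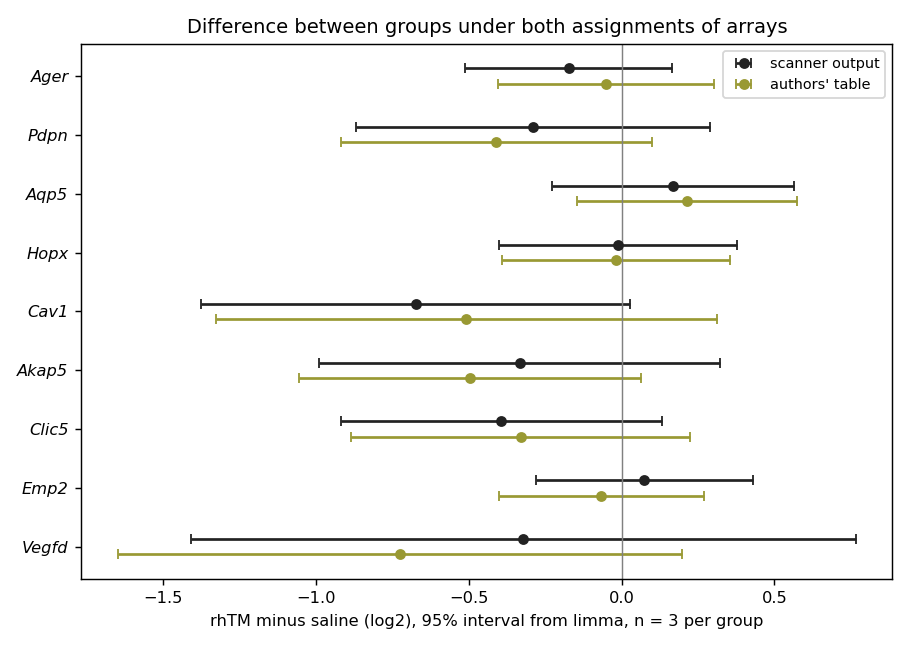
Difference between rhTM and saline (x axis, log2, with 95% interval from limma, 3 arrays per group) for the 9 AT1 genes, under both assignments of arrays (scanner output and authors' table). All 18 intervals include 0, and the widest belongs to Vegfd (-1.41 to 0.77 by the scanner output).

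The spread among rhTM mice was larger than among saline mice for 8 of 9 AT1 genes (all except Ager), and for 9 of 9 by the table, compared with 66.1% and 70.8% of all genes. The median SD over the 9 genes was 0.14 log2 with saline and 0.42 with rhTM, whereas over all genes it was 0.16 and 0.22. The array of rhTM replicate 1 was the lowest of all 6 arrays for 5 genes (Ager, Cav1, Akap5, Clic5 and Vegfd) and the highest for 3 (Aqp5, Hopx and Emp2), so that Pdpn alone was not at an end there. Over all genes, that array was at an end for 56.4% (29.8% highest and 26.6% lowest), the largest share of any array.

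On rhTM replicate 1 some AT1 genes were low and others high. Relative to the mean of the other five arrays, Vegfd stood at -1.42, Cav1 at -1.19, Clic5 at -0.77, Akap5 at -0.72 and Ager at -0.20, while Pdpn stood at 0.05, Emp2 at 0.26, Hopx at 0.34 and Aqp5 at 0.50. Beyond 1 log2 in size, where Vegfd and Cav1 lay, were 4.76% of all genes. The array of rhTM replicate 3 showed another pattern, in which none of the 9 genes was above its mean over 6 arrays, with the lowest values of Pdpn, Hopx and Emp2. Conversely, 8 of 9 genes were above their mean on saline replicate 2 and 7 of 9 on rhTM replicate 2. These orders describe 6 mice and were given no test.

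**Figure D4:**
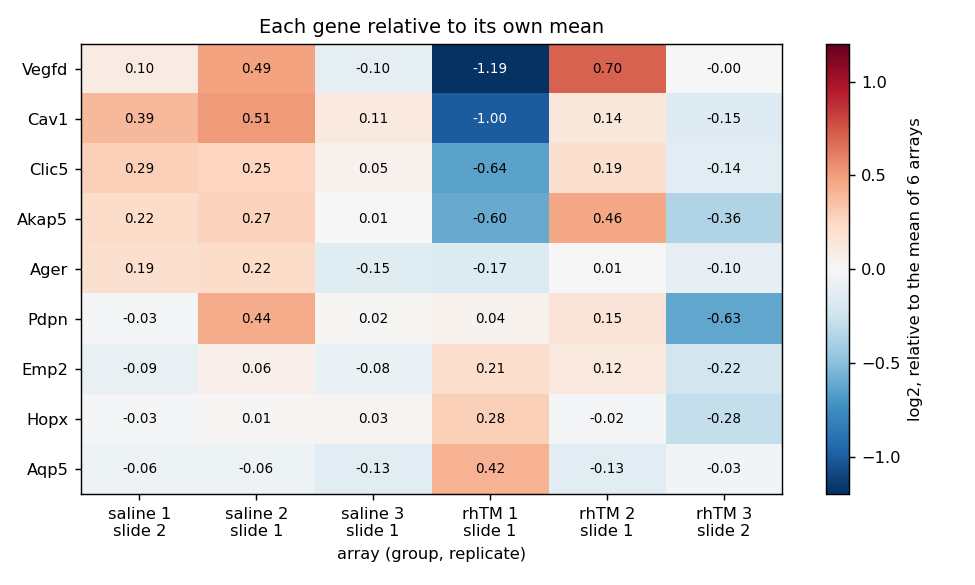
Log2 signal of each AT1 gene (rows) on each array (columns) relative to the gene's mean over 6 arrays, printed in each cell and coloured from blue (lower) to red (higher). The column of rhTM replicate 1 runs from -1.19 for Vegfd to 0.42 for Aqp5, and no value of rhTM replicate 3 is above 0.

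Without rhTM replicate 2, 3 of 9 genes passed an unadjusted p under 0.05, against 8.42% of all genes: Cav1 (difference -0.91), Akap5 (-0.65) and Clic5 (-0.59). Without rhTM replicate 1 the same differences were -0.34, -0.12 and -0.17, and by the table -0.14, -0.32 and -0.092. None of the 3 was called without rhTM replicate 2, with adjusted p between 0.536 and 0.553 in limma, and over all genes 0.0% were called. By the table without its rhTM replicate 2, the same 3 passed (-0.83, -0.73 and -0.56), as did 2387 of 16320 genes. Without both exchanged arrays, Cav1 (-0.89) and Akap5 (-0.62) passed, as did 1222 of 16370 genes. No gene was called in either of these fits. Without rhTM replicate 1, 0 of 9 passed, against 1.72% of all genes, and the median difference of the 9 was -0.13. By the table without that array, 2.71% of all genes were called higher, 0.723% lower and 25.3% passed the unadjusted threshold, with 0 of 9 AT1 genes in each case. In that fit all saline arrays were on slide 1 and both rhTM arrays on slide 2, so that slide and treatment cannot be told apart. The table with slide as a block, which in effect sets rhTM replicate 1 alone against the saline arrays, called 1.15% of all genes higher and 1.5% lower but 0 of 9 AT1 genes. Its differences are those of that array from the saline mean (Aqp5 0.52, Cav1 -1.25, Akap5 -0.85, Clic5 -0.81 and Vegfd -1.55) and are given as a description. Of all genes, 28.1% had an unadjusted p under 0.05 in that fit, from which nothing was read for the AT1 genes. Within slide 1 by the scanner output, where 2 rhTM arrays met 2 saline arrays, the differences of Cav1, Clic5 and Vegfd were -0.74, -0.38 and -0.43, and on slide 2, with 1 array each, -0.54, -0.43 and -0.10. Pdpn differed by -0.14 on slide 1 and by -0.60 on slide 2, and Hopx and Emp2 differed in sign between the slides (0.11 and 0.18 on slide 1, -0.26 and -0.13 on slide 2).

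A further 18 genes enriched in AT1 cells gave 0 calls, 17 lower means and 1 higher mean with rhTM, with a median difference of -0.14 log2 (15 lower and a median of -0.13 by the table). At an unadjusted p under 0.05 there were 0. Col4a4, a basement membrane collagen chain laid down by AT1 cells, measured 0.25, 0.26 and 0.35 with saline and -0.54, 0.29 and -0.13 with rhTM (difference -0.41, SE 0.21, and -0.44 by the table). The gene with the higher mean was Scnn1g, a subunit of the epithelial sodium channel, at 0.08 (SE 0.14, and -0.064 by the table). Of the 18 genes, 12 were lower without rhTM replicate 1, and 10 by the table without that array. Among 8 ion transport genes of the alveolar wall, 4 were higher and 4 lower (5 and 3 by the table), with Cftr, the chloride channel of cystic fibrosis, at 0.19 (SE 0.15, and 0.17 by the table).

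Markers of the other cells of the lung were set beside these values. Of 14 AT2 markers, 12 were lower with rhTM (median -0.12), but 7 by the table (median -0.02), 6 without saline replicate 1 (median 0.02) and 5 without rhTM replicate 1 (median 0.02), with a summed signal of 1574 to 2113 for saline and 1525 to 1983 for rhTM. Slc34a2, the phosphate transporter of AT2 cells, differed by -0.47 (SE 0.28, and -0.54 by the table), and Sftpd, surfactant protein D, by 0.15 (SE 0.13, and 0.17 by the table). Erythroid markers were higher in 4 of 4 tested cases (median 0.17, and 0.30 by the table). Relative to their mean over 6 arrays, their median was 0.85 log2 on rhTM replicate 1, but -0.22 and -0.20 on rhTM replicates 2 and 3. By the scanner output without rhTM replicate 1, Hba-a1, Hbb-bt and Alas2 had a lower mean with rhTM and Slc4a1 a higher one. All 8 ciliated cell markers were higher with rhTM (median 0.14, and 0.51 by the table), with a summed signal of 32.6 to 35.9 for saline and 23.8 to 49.8 for rhTM. By the scanner output each was lowest on rhTM replicate 2. Without rhTM replicate 1, the means of Foxj1, Tekt4, Dnah5, Dnah9 and Ccdc39 were lower with rhTM, and those of Tekt1, Rsph1 and Tppp3 higher. Tekt1, a tubulin-binding protein of cilia, differed by 0.40 (SE 0.34, and 0.48 by the table), and Slc4a1, the anion exchanger of red cells, by 0.39 (SE 0.29, and 0.64 by the table). Neutrophil markers were higher in 6 of 9 by either assignment (median 0.05), with the collagenase Mmp8 at 0.15 (SE 0.17, and 0.035 by the table) and lactoferrin (Ltf) at -0.31 (SE 0.29, and 0.046 by the table). Macrophage markers were higher in 4 of 9 (median -0.04), and in 3 by the table (median -0.064), with the fatty acid-binding protein Fabp4 at 0.30 (SE 0.24, and 0.26 by the table) and Adgre1, which encodes F4/80, at -0.23 (SE 0.17, and -0.24 by the table). By the scanner output with all arrays, and likewise by the table, no gene of any list was called, and the part of these cells in the AT1 values was not tested.

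**Figure D5:**
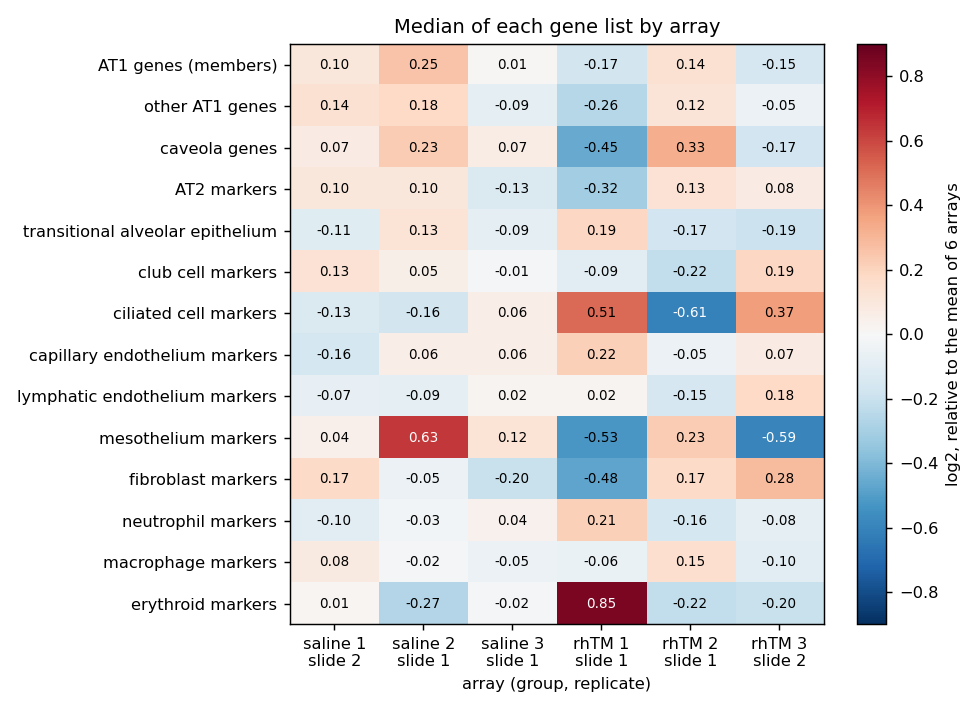
Median over the genes of each marker list (rows) of the log2 signal relative to each gene's mean over 6 arrays, by array (columns), printed in each cell. On rhTM replicate 1 the medians of AT1 genes (-0.17), other AT1 genes (-0.26), caveola genes (-0.45) and AT2 markers (-0.32) were below 0. So were those of fibroblast (-0.48), mesothelium (-0.53), club cell (-0.09) and macrophage markers (-0.06). The medians of erythroid (0.85), ciliated cell (0.51), capillary endothelium (0.22), neutrophil (0.21), transitional epithelium (0.19) and lymphatic endothelium markers (0.02) were above 0.

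The promoters of the AT1 genes were read to show what precedes the genes that stood apart on rhTM replicate 1. RefSeq windows of 250 bases before the start (assembly GRCm38.p6) were held for 9 genes in 11 windows and searched on both strands. The GC box GGGCGG, the form that Sp1 family factors bind, was in the windows of 5 of 9 genes (Akap5, Aqp5, Cav1, Clic5 and Emp2), in 5 of 11 windows, compared with 32.7% of all 32851 windows. The E-box CACGTG was in those of 3 genes (Aqp5, Hopx and Pdpn), in 3 of 11 windows, compared with 6.02%. The TATA box TATAAA was in those of Cav1 and Vegfd, in 2 of 11 windows, compared with 12.4%. The motif CAAGTG, taken as an NKX2-1 core, was in that of Vegfd, in 1 of 11 windows, compared with 11.6%, and its other strand also fits the general E-box form CANNTG. The TEAD motif GGAATG was in 0 of 11, compared with 12.6%. A match describes letters in a window and no binding was measured.

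Aqp5 and Emp2, which hold GC boxes and were, like Hopx, highest on rhTM replicate 1, and Vegfd, which was furthest below there, are shown 5′ to 3′ on the strand of the gene, with the motifs above in capitals. The Aqp5 window lies at chr15:99590778-99591027 (plus strand), that of Emp2 at chr16:10313969-10314218 (minus strand) and that of Vegfd at chrX:164373272-164373521 (plus strand).
Aqp5: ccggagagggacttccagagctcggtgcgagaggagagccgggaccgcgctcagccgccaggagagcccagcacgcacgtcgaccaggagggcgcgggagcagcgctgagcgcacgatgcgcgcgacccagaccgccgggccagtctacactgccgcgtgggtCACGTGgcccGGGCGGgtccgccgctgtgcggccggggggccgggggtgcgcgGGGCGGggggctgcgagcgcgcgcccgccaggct
Emp2: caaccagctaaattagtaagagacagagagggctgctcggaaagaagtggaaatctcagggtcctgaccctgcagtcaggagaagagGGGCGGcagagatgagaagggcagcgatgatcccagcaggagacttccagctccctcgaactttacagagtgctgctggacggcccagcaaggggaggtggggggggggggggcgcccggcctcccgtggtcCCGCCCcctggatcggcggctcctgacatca
Vegfd: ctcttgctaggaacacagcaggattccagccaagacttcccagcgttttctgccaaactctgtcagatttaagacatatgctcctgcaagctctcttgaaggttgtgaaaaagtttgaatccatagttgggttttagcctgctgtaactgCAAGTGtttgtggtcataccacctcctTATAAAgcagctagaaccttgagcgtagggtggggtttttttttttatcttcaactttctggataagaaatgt

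Counted from the base before the start as -1, the GC boxes of Aqp5 began at -77 and -34 and its E-box at -87. Those of Emp2 began at -163 and -31, and the TATA box of Vegfd at -73. The GC box occurred in genes that were low (Cav1, Akap5, Clic5) as well as high (Aqp5, Emp2) on that array, and was found neither in Hopx, which was high, nor in Ager and Vegfd, which were low.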

How the data were processed

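Total lung RNA of 6 mice was hybridised to 1-colour Agilent SurePrint G3 arrays. The authors deposited scanner files (Feature Extraction 10.7.3.1), in which the processed signal is a background-corrected intensity, and a table of the same intensity values, not scaled between arrays. Table columns were matched to arrays within 0.1%.

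Of 56605 probes, 398 flagged as outliers were dropped and control spots left out. The deposited intensity was converted to log2 and the 75th percentile of each array subtracted. Accessions of 32994 probes were matched to RefSeq genes (GRCm38.p6). Probes well above background on every array of 1 or both groups were kept, and the brightest stood for its gene. Groups were compared with limma 3.58.1 in R 4.3.3 with Benjamini-Hochberg adjustment over 16370 genes (threshold 0.05) and by exact two-sided permutation, which cannot go below 0.1. The limma fit with group alone was run on simulated arrays with known changes, and the other fits were not.

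AT1 genes and all lists were chosen with earlier results of these data known. Named genes were every AT1 gene and, of each other list, the gene of smallest unadjusted p in each direction. Groups came from the sample labels. Normexp used median spot signals. For ion transport genes, the one named for the lower direction is not reported here. The number of arrays (3 per group) limits the precision.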

Additional observations from a re-analysis of the deposited data

How the results depend on the processing

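Under all alternatives run, 0 of 9 AT1 genes were called and 6 to 8 had a lower mean with rhTM. These were normexp with an offset of 50, quantile normalization, another percentile, both dim-probe filters, the mean of probes, slide, the methods' t-test, the authors' table (also with slide as a block) and each array left out. The median difference of -0.29 became -0.52 without both exchanged arrays. With 1 array left out it ranged from -0.44 to -0.13, and by the table from -0.50 to -0.16. Hopx turned to 0.27 by the table with slide as a block, and Emp2 to -0.066 by the table. With 1 array left out, the ranges by scanner output and table were -0.29 to -0.11 and -0.16 to 0.046 for Ager, -0.16 to 0.13 and -0.16 to 0.12 for Hopx, -0.013 to 0.20 and -0.19 to 0.028 for Emp2, and -0.75 to 0.19 and -0.96 to -0.31 for Vegfd. By the table, Ager was above 0 without saline replicate 2 (0.046) or rhTM replicate 1 (0.020), and Emp2 below 0 without saline replicates 1, 2 and 3 (-0.023, -0.054 and -0.12) and rhTM replicates 1 and 2 (-0.19 and -0.037). By the scanner output, leaving out rhTM replicate 1 turned Vegfd and Emp2, and leaving out rhTM replicate 3 turned Hopx, as did leaving out saline replicate 3 (0.0017). Counts of other lists under these alternatives were added after seeing the data, and the other AT1 genes with lower means were 12 to 17 of 18, and 10 to 16 by the table. The cause of these changes was not tested.

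By the scanner output, deviations of same-numbered arrays from their group means correlated at -0.30, 0.44 and -0.45. These values depend on one another and take no account of slide or of the exchanged arrays. Whether the replicate numbers pair the mice was therefore not settled. With the replicate number as a block the median difference was -0.29, 377 genes in place of 306 passed an unadjusted p under 0.05, and 0 genes were called.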

Other observations

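Of 10 genes of the transitional alveolar epithelium, the keratin-rich state between AT2 and AT1 cells, 5 had a higher and 5 a lower mean with rhTM (median -0.03), and 7 a higher mean by the table (median 0.15), and 0 were called by either. Areg, an epidermal growth factor receptor ligand, measured -5.04, -4.26 and -4.77 with saline and -2.45, -4.89 and -3.53 with rhTM, a difference of 1.07 (SE 0.58, and 0.97 by the table). Krt19, a keratin of simple epithelium, differed by -0.36 (SE 0.21, and -0.44 by the table). By the table with slide as a block, 9 of 10 were higher (median 0.39), compared with 51.8% of all genes. That fit in effect sets rhTM replicate 1 alone against the saline arrays. Sfn, which encodes the epithelial 14-3-3 protein and was chosen after its values were seen, measured 4.58 on rhTM replicate 1 and 2.13 to 2.73 on the other five arrays.

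Of 6 club cell markers, 5 were lower with rhTM (median -0.08), and 2 by the table (median 0.18), with Aldh1a1 at -0.30 (SE 0.13, and -0.23 by the table) and Scgb1a1, the club cell secretory protein, at 0.05 (SE 0.17, and 0.34 by the table). Adipocyte markers were lower in 5 of 6 (median -0.15), and in 4 by the table, with leptin (Lep) at 0.05 (SE 0.20, and -0.24 by the table) and the lipid droplet protein Plin1 at -0.48 (SE 0.19, and -0.39 by the table). Muscle markers were lower in 6 of 7 (median -0.35), and in 3 by the table (median 0.23), with the atrial peptide gene Nppa at 0.20 (SE 0.34, and -0.28 by the table) and creatine kinase (Ckm) at -1.44 (SE 0.65, and 0.80 by the table). Ckm measured -1.71 on saline replicate 1, but -4.41 and -3.77 on saline replicates 2 and 3. Relative to each gene's mean over all arrays, the muscle list median on these saline arrays was 0.60, -0.39 and 0.30. T and B cell markers were lower in 3 of 8 (median 0.07), and in 5 by the table (median -0.35), with Cd3d at 0.24 (SE 0.29, and 0.046 by the table) and Cd8a at -0.23 (SE 0.30, and -0.37 by the table).

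Calls in marker lists, named after their values were seen, came from the table only. With slide as a block, which sets rhTM replicate 1 alone against the saline arrays, these included Sfn (1.94), Aqp1 (0.91) and Slc4a1 (1.08), which were higher, and Inmt (-1.73), which was lower. Without rhTM replicate 1, where by the table all saline arrays were on slide 1 and both rhTM arrays on slide 2 so that slide and treatment cannot be told apart, they were Aqp1 (0.58), Lyz1 (0.58), Npnt (0.89), Ly96 (0.59) and Cd4 (2.57), all higher.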
